A study of Mus musculus with 57 samples.

Results

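The Cyp3a genes encode cytochrome P450 enzymes of subfamily 3A. The members described here are Cyp3a11, Cyp3a13, Cyp3a16, Cyp3a25, Cyp3a41a, Cyp3a41b, Cyp3a44 and Cyp3a59, taken as the genes whose Ensembl identifiers in the deposited table pair with those symbols. They are 8 of 54307 genes, of which 51482 could be paired with a symbol, and the rule itself uses no measured value. The series profiled bulk liver RNA of 57 male, wild-type C57BL/6JJcl mice in models of toxic liver injury, to test and tune a way of reading cell type shares from whole-tissue RNA.

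All mice were 6 weeks old on arrival, had 1 week to acclimatise, fasted for 12 h, received 1 compound or a vehicle alone, and were killed 24 h later, when part of the outer left lateral lobe was taken. By gavage, 13 control mice received 0.5% methylcellulose, 4 mice alpha-naphthyl isothiocyanate (ANIT, a bile duct toxicant), 6 mice acetaminophen (APAP), 7 mice 4,4'-methylene dianiline (MDA, an aromatic amine that injures bile ducts) and 5 mice thioacetamide (TAA). By intraperitoneal injection, 2 control mice received saline, 7 mice carbon tetrachloride (CCl4) and 4 mice galactosamine (GAL). By tail vein, 2 control mice received saline and 7 mice concanavalin A (ConA, a lectin that activates T cells). The labels give no dose of any compound in mass, so responses to different compounds are set side by side and not compared at matched doses. They also name corn oil as a vehicle without saying for which compound, and no group received corn oil alone. Each library is labelled with its compound and a replicate number, and is read here as 1 mouse, so p-values measure the spread between mice.

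CYP3A enzymes sit in the endoplasmic reticulum of hepatocytes and intestinal epithelium, where they oxidise many drugs, steroids and bile acids with electrons from POR and cytochrome b5. Their genes are known targets of the nuclear receptors PXR (Nr1i2) and CAR (Nr1i3), which pair with RXRA and bind repeats of a hexamer half-site. In mouse liver Cyp3a11 is the main drug-inducible form, Cyp3a16 is known as a fetal and neonatal form, and Cyp3a41a, Cyp3a41b and Cyp3a44 are known as forms that are more abundant in females.

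In RefSeq on GRCm38.p6 all 8 genes lie on chromosome 5, Cyp3a13 at chr5:137892933-137925610 and the other 7 in a cluster within chr5:145436309-146114978. The authors' values were made on GRCm39, so these positions describe the RefSeq entries and were not carried over to the counts. Stretches of 54 bases upstream of the start are printed for the 7 clustered genes. Some of the 7 are near-copies of one another, and the stretch holds the half-site hexamer AGGTCA in some and not in others. Each stretch runs 5′ to 3′ along the strand of the gene, and capitals mark AGGTCA or its reverse complement TGACCT.
Cyp3a11: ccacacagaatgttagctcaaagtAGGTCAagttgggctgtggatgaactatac
Cyp3a44: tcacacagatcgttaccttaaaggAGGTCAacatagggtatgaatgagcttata
Cyp3a41a: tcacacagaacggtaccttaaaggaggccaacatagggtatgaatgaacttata
Cyp3a41b: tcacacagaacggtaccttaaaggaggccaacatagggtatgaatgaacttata
Cyp3a16: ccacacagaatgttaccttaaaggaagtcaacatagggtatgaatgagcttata
Cyp3a25: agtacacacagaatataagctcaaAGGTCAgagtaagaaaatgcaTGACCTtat
Cyp3a59: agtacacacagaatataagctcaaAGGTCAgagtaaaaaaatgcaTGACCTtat
In the same order, the stretches lie at chr5:145879987-145880040, chr5:145805995-145806048, chr5:145720257-145720310, chr5:145584851-145584904, chr5:145469848-145469901 and chr5:146009765-146009818 on the minus strand and at chr5:146079057-146079110 on the plus strand. In the alignment of the Cyp3a13 and Cyp3a11 promoters, the base at which AGGTCA starts in Cyp3a11 fell in a gap, so no stretch of Cyp3a13 is shown.

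Over the 300 bases from 250 before to 50 after each RefSeq start, searched on both strands, AGGTCA occurred in 4 of the 8 members (Cyp3a11, Cyp3a25, Cyp3a44 and Cyp3a59) and in 16.0% of 27025 promoters of the same length. The extended form CAAAGGTCA, which contains AGGTCA, occurred in Cyp3a25 and Cyp3a59 and in 0.47% of promoters. A direct repeat of AGNTCA and AGGTCA with 4 bases between them, which also contains AGGTCA, occurred in Cyp3a11 and in 8 promoters in all. The variant AGTTCA occurred in Cyp3a11, Cyp3a41a and Cyp3a41b and in 14.0% of promoters. The everted repeat of TGAACT and AGGTCA with 6 bases between them occurred in 0 of 27025 promoters. TATAA occurred in 7 of the 8 members, all but Cyp3a13, and in 25.5% of promoters. These are matches of letters in 1 window and say nothing of binding. The window of Cyp3a13, at chr5:137921570-137921869 on the minus strand, lies inside the interval given for that gene and not at its end.

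The copies limit how well reads can be assigned. Between the longest coding transcripts of GENCODE M21, Cyp3a41a and Cyp3a41b were 99.9% identical and Cyp3a25 and Cyp3a59 97.0% identical. Cyp3a11 was 94.5% identical to Cyp3a41a and 93.5% to Cyp3a44, but 74.1% to Cyp3a25, 73.9% to Cyp3a59 and 72.1% to Cyp3a13. Of the runs of 31 bases in a member's transcripts, 99.85% of Cyp3a41a, 95.9% of Cyp3a41b, 49.9% of Cyp3a59, 48.4% of Cyp3a44, 45.9% of Cyp3a25, 27.3% of Cyp3a16, 15.7% of Cyp3a11 and 0.24% of Cyp3a13 also occurred in another gene. Values of Cyp3a41a and Cyp3a41b are therefore uncertain one by one, and values of Cyp3a25, Cyp3a44 and Cyp3a59, and to a lesser extent Cyp3a16, partly so.

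The libraries held 13826343 to 35075809 estimated counts (median 21532116), 5.11% to 39.3% of them mitochondrial. Of the 40 treated libraries, 37 lay nearest to the mean of their own group over 12367 genes other than the members, by root mean square difference in log2(CPM + 1), where CPM is the estimated count scaled to library size with TMM factors. Among the 3 others, the library labelled ANIT 1 lay at 0.737 from the rest of ANIT and at 0.526 from MDA. The library labelled MDA 1 lay at 0.696 from the rest of MDA and at 0.580 from ANIT. The third, labelled APAP 1, lay at 1.09 from its own group and at 0.918 from ConA. All libraries keep their labels here. Whether the labels of ANIT 1 and MDA 1 were exchanged was not tested, and every value of the ANIT and MDA groups depends on them. The tests of the members in these groups are given with and without them, and other values include both unless stated. Hepatocyte markers (6 genes, albumin among them) were abundant in every library, with a summed level of 18080 to 28690 CPM in CCl4, 23840 to 31110 CPM in GAL and at least 35990 CPM in every other group. Reference markers of other cell types were low beside them, and their levels are given where they moved with a result.

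In livers of the gavage controls the family was led by Cyp3a11. Its level was 1435 ± 410 CPM (SD, n = 13), with a lowest value of 776, a median of 1467 and a highest value of 1989 CPM. Cyp3a25, a second constitutive liver form, followed at 248 ± 72.0 CPM, between 143 and 358 with a median of 238 CPM. Cyp3a13, a form that lies apart from the cluster, stood at 51.0 ± 13.4 CPM, between 21.9 and 70.3 with a median of 52.8 CPM. Cyp3a59, the near-copy of Cyp3a25, stood at 22.8 ± 6.12 CPM, between 13.4 and 32.1 with a median of 23.6 CPM. None of these 4 ranges overlapped the next except those of Cyp3a13 and Cyp3a59, which met between 21.9 and 32.1 CPM.

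The female-biased and neonatal forms were near the limit of detection in these male livers. Cyp3a41a stood at 0.926 ± 0.818 CPM (n = 13) and was listed at 0 in 2 controls. Cyp3a44 stood at 0.572 ± 0.215 CPM and was above 0 in all 13. Cyp3a41b was listed at 0 in 11 controls and reached 1.69 CPM in the library labelled Ctrl 1, 1 of the 2 in which Cyp3a41a was listed at 0. In the other, labelled Ctrl 12, Cyp3a41b stood at 0.830 CPM. Summed over the 2 near-identical genes, the level was 1.12 ± 0.732 CPM, between 0.329 and 3.13. Cyp3a16 stood at 0.0398 ± 0.0387 CPM, was listed at 0 in 3 controls, and did not pass the filter on low counts in any comparison.

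**Figure D1:**
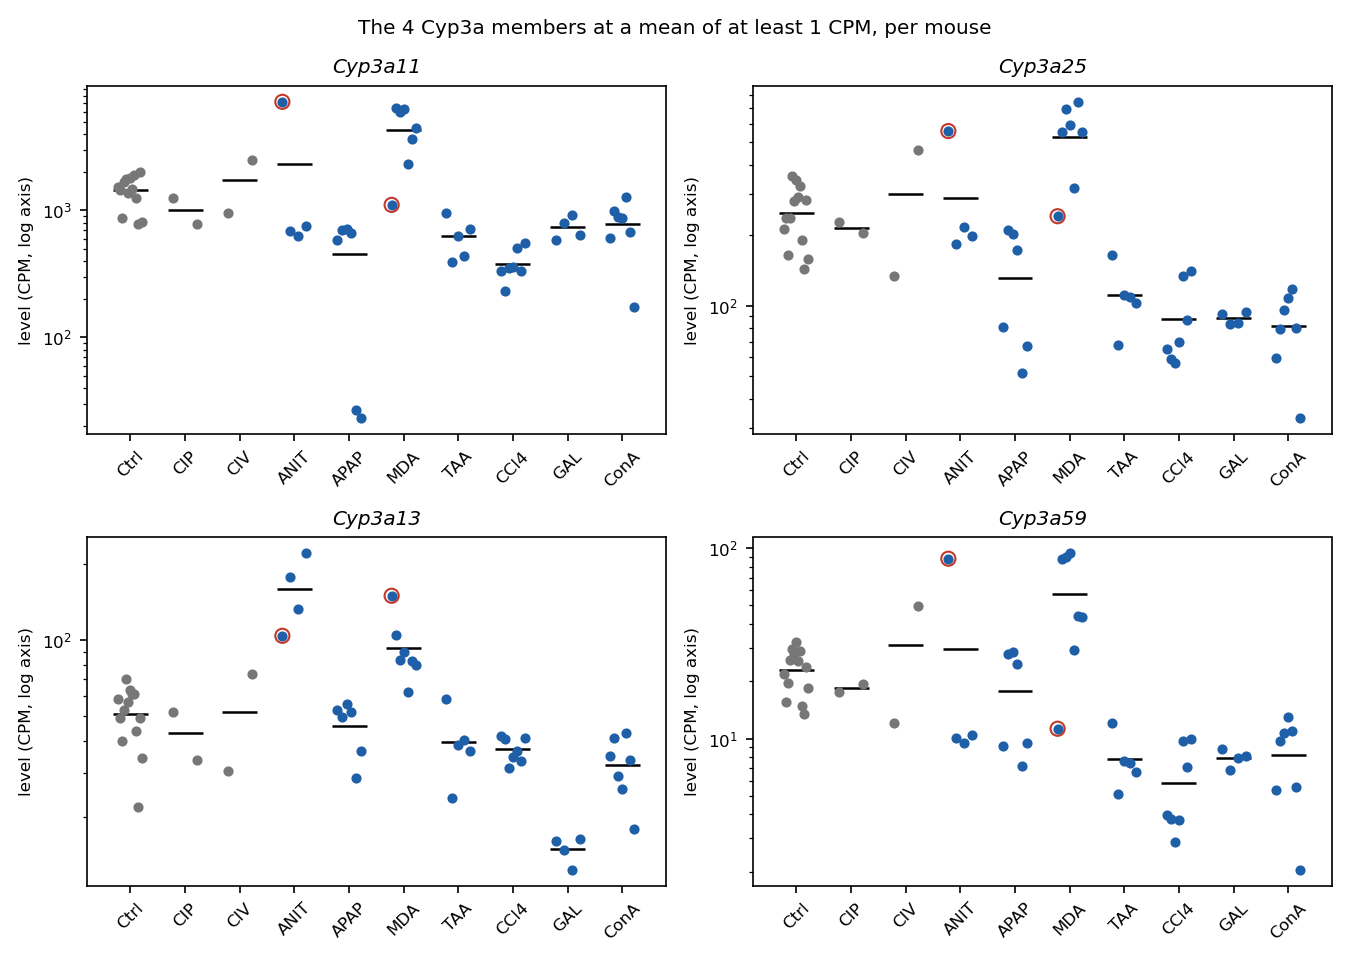
Level of Cyp3a11, Cyp3a25, Cyp3a13 and Cyp3a59 in each of the 57 mice by group, in CPM on a log axis, with 1 point per mouse, a black bar at the group mean and red rings on the libraries labelled ANIT 1 and MDA 1. Cyp3a11 spans 23.0 CPM in an APAP mouse to 7161 CPM in ANIT 1, and on this scale Cyp3a13 is highest in ANIT and lowest in GAL.

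**Figure D2:**
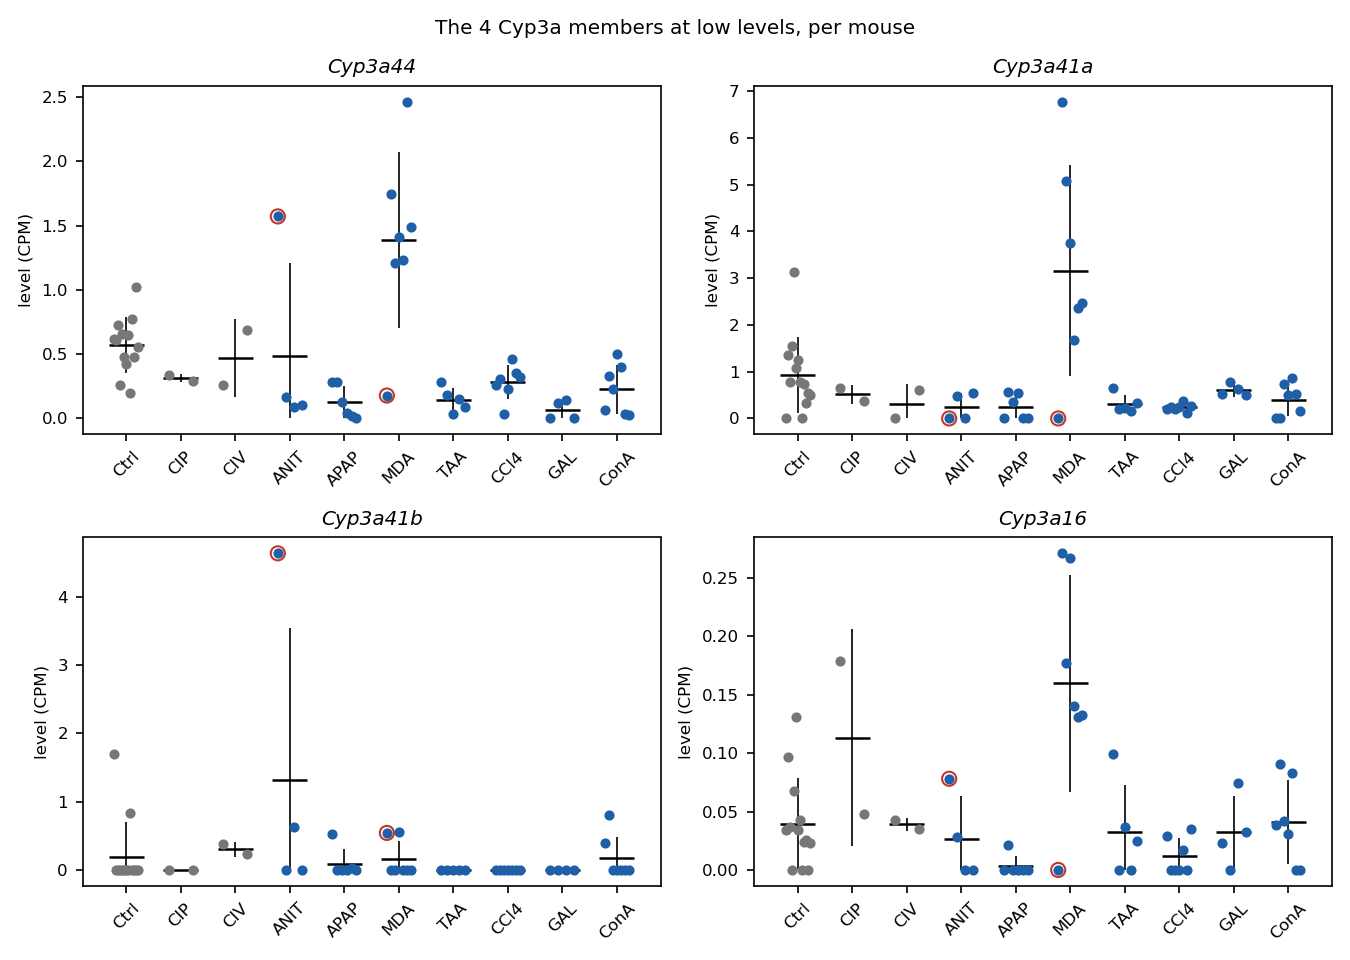
Level of Cyp3a44, Cyp3a41a, Cyp3a41b and Cyp3a16 in each mouse by group, in CPM on a linear axis, with 1 point per mouse, the group mean as a black bar, 1 SD as a line stopped at 0, and red rings on the libraries labelled ANIT 1 and MDA 1. Most MDA mice lie above the controls for Cyp3a44, while Cyp3a41b is listed at 0 in every mouse of intraperitoneal saline, TAA, CCl4 and GAL.

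Levels of different genes are compared per kilobase of the longest coding transcript. On that scale the order of the 8 genes in the gavage controls was that of the CPM values, with Cyp3a11 at 612, Cyp3a25 at 124, Cyp3a13 at 17.3 and Cyp3a59 at 11.5 CPM per kilobase. The deposited values already look corrected for length, so both scales are given. Cyp3a11 made up 81.6% of the family's mean CPM and 79.9% of its mean CPM per kilobase, and Cyp3a25 made up 14.1% and 16.2%.

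In the gavage controls the shares of the 2 leading members varied less than the family's summed level. The share of Cyp3a11 in the summed CPM lay between 78.8% and 84.7%, and that of Cyp3a25 between 11.7% and 16.2%, while the sum itself ran from 955 to 2348 CPM. The share of Cyp3a13 was 2.94% ± 0.44 (SD, n = 13) in the controls, 5.13% ± 0.95 in TAA (n = 5), 7.74% ± 2.38 in CCl4 (n = 7) and 1.82% ± 0.49 in GAL (n = 4). In ANIT it was 1.31%, 16.7%, 13.4% and 18.6% in the libraries labelled ANIT 1 to 4. The share of Cyp3a13 was 2.795% ± 3.16 in MDA (n = 7) and 4.16% ± 1.88 in ConA (n = 7). In APAP the share of Cyp3a11 was 23.5% and 16.9% in the libraries labelled APAP 8 and APAP 11, where Cyp3a25 held 45.2% and 49.4%, and between 70.6% and 80.2% in the other 4. Cyp3a13 held 25.0% and 26.7% in APAP 8 and APAP 11, and between 5.03% and 7.31% in the other 4. All of these values describe the sum over the members, which carries no test.

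**Figure D3:**
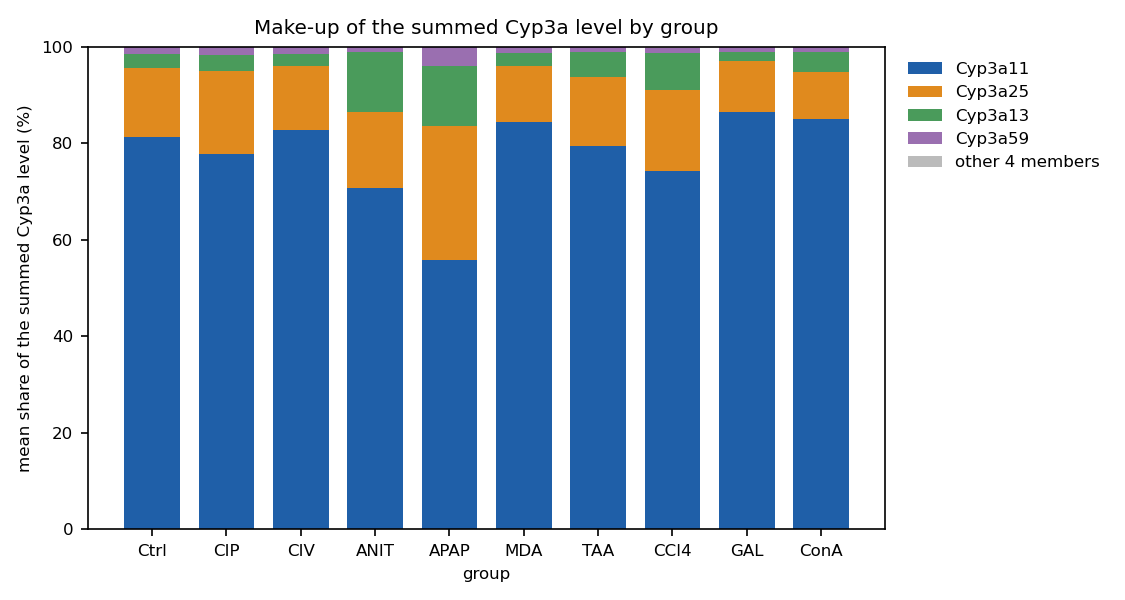
Mean share of each member in the summed Cyp3a level of a mouse, in percent of the family's CPM, as 1 stacked bar for each of the 10 groups, with the 4 low members summed. Cyp3a11 fills 81.4% of the bar in the gavage controls and 55.9% in APAP, where Cyp3a25 fills 27.7%.

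Across the 10 groups, ordered by the mean of log2(CPM + 1), Cyp3a11 was highest in MDA, followed by intravenous saline, gavage control, ANIT, intraperitoneal saline, GAL, ConA, TAA, CCl4 and APAP. Only 2 of the 9 steps in that order exceeded the larger SD of the neighbouring groups, from MDA to intravenous saline and from TAA to CCl4. The orders rest on TMM scaling. On library totals Cyp3a11 averaged 610 ± 162 CPM in TAA and 532 ± 182 CPM in CCl4. On that scaling it averaged 1240 CPM in GAL beside 1032 CPM in intraperitoneal saline. For Cyp3a13 the order ran from ANIT to MDA, gavage control, intravenous saline, APAP, intraperitoneal saline, TAA, CCl4, ConA and GAL, and 3 steps exceeded the spread, the first 2 and the last. For Cyp3a25 the order was MDA, ANIT, intravenous saline, gavage control, intraperitoneal saline, APAP, TAA, GAL, CCl4 and ConA, and the steps below MDA and below intraperitoneal saline exceeded the spread. Cyp3a59 was likewise highest in MDA, but only the step from APAP to GAL exceeded the spread. For Cyp3a41a and Cyp3a44 only the step from MDA to the gavage control did so, and for Cyp3a16 and Cyp3a41b none did. Without ANIT 1 and MDA 1, ANIT moved down to between GAL and ConA for Cyp3a11 and to between intraperitoneal saline and APAP for Cyp3a25, and neither step of Cyp3a25 exceeded the spread any longer. Without these 2 libraries the step from gavage control to intraperitoneal saline exceeded it for Cyp3a11, and that from ANIT to GAL was the only such step for Cyp3a59. MDA stayed first for Cyp3a11, Cyp3a25, Cyp3a59, Cyp3a41a, Cyp3a44 and Cyp3a16, and ANIT first for Cyp3a13.

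MDA was the compound after which the family was highest, though differences between compounds were not tested. Cyp3a11 and 5 other members were higher than in the gavage controls, among them the 4 abundant forms and 2 of the 3 female-biased forms, Cyp3a41a and Cyp3a44, which male liver hardly expresses. The third, Cyp3a41b, was not tested and stood at 0.157 CPM beside 0.194 CPM in the controls. The fitted fold was 2.99 for Cyp3a11 and between 1.83 and 3.41 for the others. The library labelled MDA 1 stood apart from the other 6 in this response. The transcripts of Cyp3a41a, Cyp3a44 and Cyp3a16 were 94.5%, 93.5% and 91.6% identical to that of Cyp3a11. In MDA they averaged 3.16, 1.39 and 0.160 CPM beside 4298 CPM of Cyp3a11. The part of misassigned Cyp3a11 reads in their values was not tested.

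Cyp3a11 stood at 1105, 6374, 5941, 6293, 2329, 3621 and 4425 CPM in the libraries labelled MDA 1, 2, 3, 4, 7, 8 and 12. All but MDA 1 lay above the highest control (1989 CPM), and MDA 1 lay below the control median. The fitted log2 difference was 1.58 ± 0.26 (SE; edgeR, adjusted p = 8.85e-05). Cyp3a25 stood at 241, 552, 692, 594, 319, 746 and 555 CPM in the same order, with MDA 1 and MDA 7 inside the control range. Its log2 difference was 1.09 ± 0.21 (edgeR, adjusted p = 0.000368). Cyp3a59 stood at 11.3, 87.7, 89.8, 93.8, 29.1, 44.0 and 43.7 CPM, with MDA 1 below every control and MDA 7 inside the control range. Its log2 difference was 1.32 ± 0.28 (edgeR, adjusted p = 0.00107).

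Cyp3a13 departed from this picture, with its highest value in MDA 1. It stood at 150, 105, 83.5, 89.4, 62.5, 82.6 and 79.9 CPM in the same order, and 6 of the 7 mice lay above the highest control (70.3 CPM). The log2 difference was 0.87 ± 0.18 (edgeR, adjusted p = 0.00095). Cyp3a44 stood at 0.178, 1.75, 1.21, 1.41, 1.24, 2.46 and 1.49 CPM, 6 above every control and MDA 1 below every control. Its log2 difference was 1.28 ± 0.32 (edgeR, adjusted p = 0.00355). Cyp3a41a stood at 0, 6.77, 5.08, 3.76, 1.68, 2.37 and 2.48 CPM and had a log2 difference of 1.77 ± 0.62 (edgeR, adjusted p = 0.0318). That call was lost without MDA 2 (1.48, adjusted p = 0.0902), MDA 3 (1.62, 0.0749) or MDA 4 (1.73, 0.0567), with library totals in place of TMM scaling (1.64, 0.0525), with no filter on low counts (1.76, 0.0747), with a term for whether the replicate number was low or high (1.63, 0.0663) and against controls numbered up to 12 only (1.495, 0.122). With all 10 groups in 1 fit, neither Cyp3a41a (1.77, adjusted p = 0.0572) nor Cyp3a44 (1.28, 0.0917) was called. Summed with Cyp3a41b, the difference was 1.58 ± 0.40 (edgeR, adjusted p = 0.0042).

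All 6 members that passed the filter on low counts were thus called higher, where 17.4% of the 13522 genes tested were higher and 16.4% lower. The median log2 difference of these 6 was 1.30, beside 0.03 over all genes tested. Cyp3a16 and Cyp3a41b did not pass the filter. Cyp3a16 was listed at 0 in MDA 1 and stood between 0.131 and 0.271 CPM in the other 6, and DESeq2, which tested it, called it higher. Without MDA 1 the same 6 members were called, where 17.8% of genes tested were higher, and the log2 difference of Cyp3a11 was 1.75 ± 0.22 (edgeR, adjusted p = 3.16e-06). Without MDA 1, Cyp3a11 averaged 4830 ± 1652 CPM and Cyp3a44 1.59 ± 0.47 CPM (SD, n = 6), and all 6 mice lay above every control for both. Set against all 17 vehicle mice, 6 members were again called higher, where 17.2% of genes tested were higher, and Cyp3a41a lost its call there without MDA 2 (1.66, 0.0532). Among mice numbered 1 to 4 only, 3 members were called higher, where 4.98% of genes tested were higher, and among those numbered above 4 only, 3 were, where 10.1% were. Cyp3a59 was called in neither range (1.75, adjusted p = 0.0700, and 0.72, 0.0605), Cyp3a13 was not called above 4 (0.55, 0.171), Cyp3a44 was not called in 1 to 4 (0.98, 0.327), and Cyp3a41a was called in neither (0.274 and 0.263).

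After ANIT the 4 mice did not respond alike, and the answer for most members depended on the library labelled ANIT 1. In that library 6 members stood at 2 or more times the level of any other ANIT mouse. Cyp3a16 is counted among them only near the limit of detection, at 0.0781 against 0 to 0.0279 CPM. In the remaining 3 mice Cyp3a11, Cyp3a44 and Cyp3a59 lay below every control, while Cyp3a13 was above every control in all 4. The share of all genes with such separation was not counted.

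Cyp3a11 stood at 7161, 694, 627 and 750 CPM in ANIT 1 to 4, and Cyp3a59 at 87.9, 10.0, 9.47 and 10.4 CPM. Cyp3a44 stood at 1.57, 0.168, 0.0872 and 0.103 CPM, and Cyp3a25 at 559, 183, 218 and 198 CPM. ANIT 1 was thus above every control for each of these 4 genes, and the other 3 mice were below or inside the control range. Over all 4 mice none of these differences passed the test, with log2 differences of 0.68 ± 0.47 for Cyp3a11 (edgeR, adjusted p = 0.300), 0.36 ± 0.44 for Cyp3a59, -0.31 ± 0.60 for Cyp3a44 and 0.22 ± 0.28 for Cyp3a25. Without ANIT 1, Cyp3a11 was lower by a log2 difference of -1.05 ± 0.28 (edgeR, adjusted p = 0.00911), Cyp3a59 by -1.19 ± 0.26 (0.00241) and Cyp3a44 by -2.34 ± 0.51 (0.00281). Cyp3a25 was not called without ANIT 1 (-0.31, adjusted p = 0.394).

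Cyp3a13 was higher in ANIT whichever libraries were used. It stood at 104, 178, 132 and 220 CPM, and the lowest of these was above the highest control (70.3 CPM). The log2 difference was 1.64 ± 0.22 (edgeR, adjusted p = 3.74e-05) with all 4 mice and 1.80 ± 0.23 (2.37e-05) without ANIT 1. It was the only one of 7 members tested that was called with all 4 mice, where 14.0% of the 14072 genes tested were higher and 14.2% lower. Without ANIT 1, 3 members were lower and 1 higher, where 13.9% of genes tested were lower and 13.5% higher. With all 17 vehicle mice as controls Cyp3a13 was again the only member called, where 13.5% of genes were higher. The 2 near-identical genes split unevenly here, since Cyp3a41b stood at 4.63 CPM in ANIT 1 with Cyp3a41a listed at 0, and their sum did not pass the test (0.48 ± 0.57, adjusted p = 0.572).

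**Figure D4:**
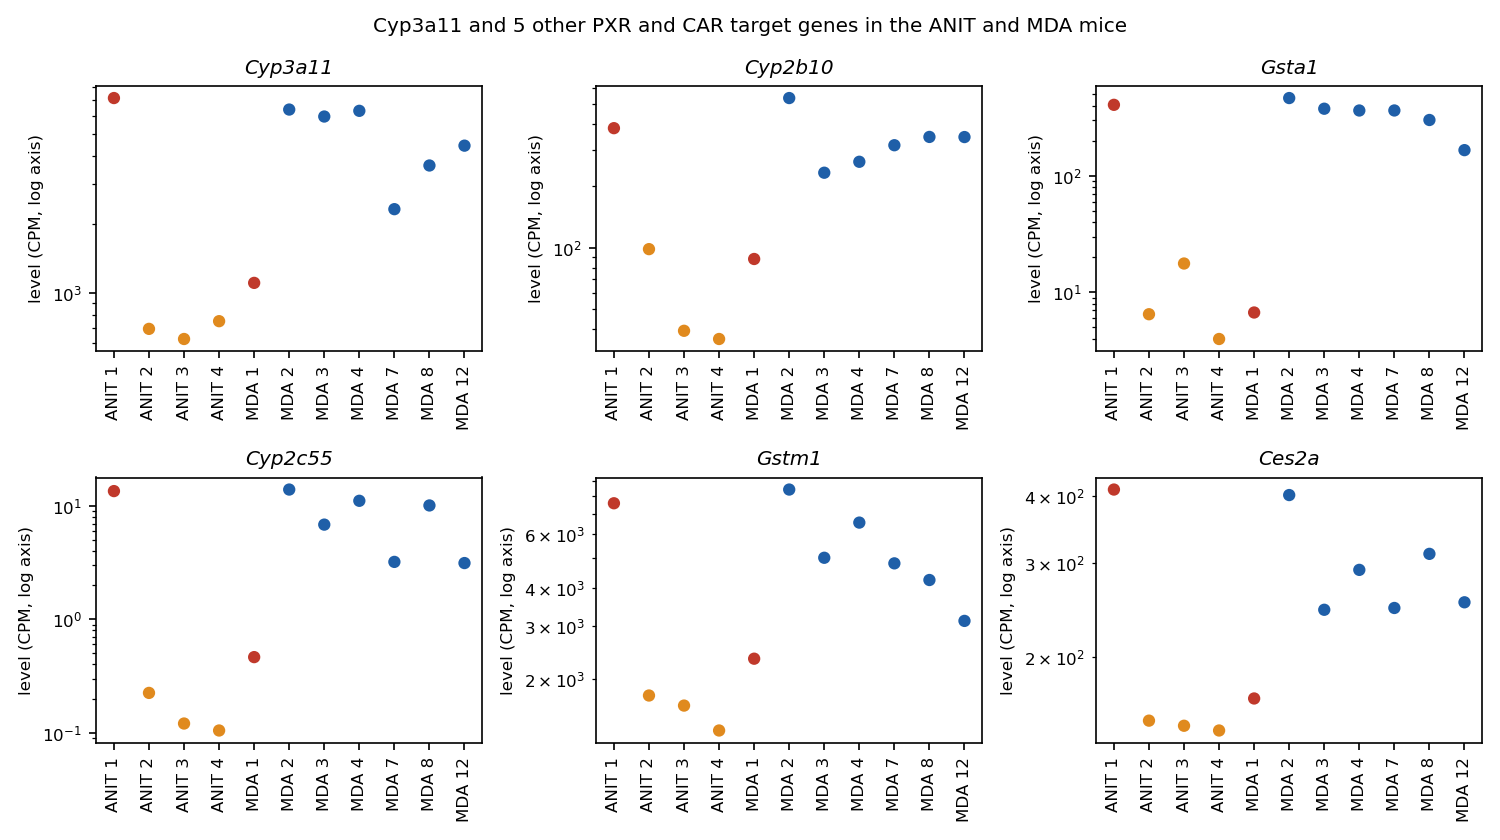
Level of Cyp3a11 and of 5 other known PXR and CAR target genes (Cyp2b10, Gsta1, Cyp2c55, Gstm1 and Ces2a) in each ANIT and MDA mouse, in CPM on a log axis, with ANIT in orange, MDA in blue and the libraries labelled ANIT 1 and MDA 1 in red. For all 6 genes ANIT 1 lies above the other 3 ANIT mice, and MDA 1 lies below the other 6 MDA mice.

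Some genes outside the family showed the same crossing. Of 15 other PXR and CAR targets, 6 were higher in ANIT 1 than in any other ANIT mouse and lower in MDA 1 than in any other MDA mouse. In 2 (Ugt1a1 and Aldh1a1) ANIT 1 was the lowest and MDA 1 the highest, and the other 7 followed neither pattern. How many of all genes crossed in this way was not counted. The targets described next and those plotted were chosen after their values were seen. Gsta1, a glutathione transferase, stood at 407 CPM in ANIT 1 and between 3.98 and 17.7 CPM in the other ANIT mice, and at 6.71 CPM in MDA 1 against 166 to 465.7 CPM in the other MDA mice. Cyp2b10, the classic CAR target, stood at 382 CPM in ANIT 1 against 35.9 to 98.4, and at 88.1 CPM in MDA 1 against 232 to 536. Cyp2c55 stood at 13.5 CPM in ANIT 1 against 0.105 to 0.224, and at 0.464 CPM in MDA 1 against 3.13 to 13.9. The pericentral hepatocyte markers summed to 2207 CPM in ANIT 1 against 4210 to 5967 in the other ANIT mice, and to 6103 CPM in MDA 1 against 1437 to 3097 in the other MDA mice. The cause was not tested.

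After APAP 3 members were lower, and the family was lowest in 2 of the 6 mice. Cyp3a11 stood at 583, 697, 709, 669, 26.8 and 23.0 CPM in the libraries labelled APAP 1, 2, 4, 6, 8 and 11. All 6 lay below the lowest control (776 CPM), and APAP 8 and APAP 11 lay far below the other 4. The log2 difference was -1.65 ± 0.54 (edgeR, adjusted p = 0.0252). Cyp3a25 stood at 80.7, 212, 203, 172, 51.7 and 67.3 CPM, 3 of them inside the control range, with a log2 difference of -0.90 ± 0.28 (edgeR, adjusted p = 0.0201). Its call was lost without APAP 1 (-0.80, adjusted p = 0.0517) or APAP 11 (-0.77, 0.0547), and with library totals in place of TMM scaling (-0.72, 0.0849). Cyp3a44 stood at 0.282, 0.284, 0.126, 0.0392, 0.0161 and 0 CPM, 4 of them below every control, with a log2 difference of -2.35 ± 0.58 (edgeR, adjusted p = 0.00446). It passed the filter on low counts through the controls, with at most 0.314 CPM in APAP on library totals beside their mean of 0.549 CPM.

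Cyp3a13 was not called after APAP, at 53.1, 49.7, 55.7, 52.2, 28.5 and 36.4 CPM, all inside the control range (-0.12 ± 0.20, edgeR adjusted p = 0.683). Cyp3a59 was not called either (-0.34 ± 0.28, adjusted p = 0.386), with 9.11, 27.9, 28.5, 24.7, 7.15 and 9.44 CPM in the same order. Cyp3a41a missed the threshold by itself (-1.85, adjusted p = 0.121) and passed it when summed with Cyp3a41b (-1.75 ± 0.61, edgeR, 0.0326). The 3 members called are 3 of 6 tested, where 14.6% of the 13939 genes tested were lower and 17.3% higher. The median log2 difference of the 6 was -1.27, beside 0.07 over all genes tested. Relative to all 17 vehicle mice the same 3 members were lower, where 15.3% of genes were lower, and Cyp3a25 lost its call there without APAP 11 (-0.78, 0.0508) or with library totals (-0.73, 0.0644). Among mice numbered 1 to 4 only, 0 of the 5 members tested were called (Cyp3a11 -1.02, adjusted p = 0.0563), where 3.35% of genes were lower. Among those numbered above 4, 2 of 6 were, where 9.89% of genes were lower, with Cyp3a11 again not called (-2.57, 0.0618).

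APAP 8 and APAP 11 were also the mice with the fewest pericentral transcripts. The 8 pericentral hepatocyte markers, genes of the zone around the central vein where CYP enzymes are concentrated, summed to 108 and 121 CPM there, against 700.02 to 4255 CPM in the other 4 APAP mice and 3971 to 6030 CPM in the controls. In APAP 7 of those 8 markers were called lower and 0 higher. The same 2 mice had the highest summed neutrophil markers, at 189 and 253 CPM against 11.3 to 37.6 CPM in the other 4, and the highest summed fetal and neonatal liver genes, at 13.6 and 17.1 CPM against 4.38 to 6.59 CPM. In bulk liver, fewer cells of a type and less RNA per cell cannot be told apart, and the part of the markers in the change of the Cyp3a genes was not tested.

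After TAA 4 members were lower, where 24.0% of genes tested were lower, each with at least 4 of the 5 mice below every control. How many of all genes separated in this way was not counted. Cyp3a11 stood at 953, 393, 630, 441 and 717 CPM in the libraries labelled TAA 1, 3, 6, 7 and 8, with TAA 1 alone inside the control range, and had a log2 difference of -1.13 ± 0.25 (edgeR, adjusted p = 0.000938). That call was lost with all 10 groups in 1 fit (-1.195, adjusted p = 0.0609). Cyp3a25 stood at 164, 67.7, 111, 109 and 103 CPM, again with only TAA 1 inside the control range (-1.10 ± 0.23, edgeR adjusted p = 0.00061). Cyp3a59 stood at 12.0, 5.11, 7.60, 7.43 and 6.70 CPM, all below the lowest control (13.4 CPM), with a log2 difference of -1.49 ± 0.23 (edgeR, adjusted p = 2.42e-05). Cyp3a44 stood at 0.280, 0.179, 0.0310, 0.147 and 0.0861 CPM, 4 of them below every control (-1.95 ± 0.45, edgeR adjusted p = 0.0013). Here too it passed the filter on low counts through the controls, with at most 0.206 CPM in TAA on library totals.

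Cyp3a13 overlapped the controls in all 5 TAA mice, at 58.3, 23.9, 38.5, 40.3 and 36.5 CPM (-0.31 ± 0.22, edgeR adjusted p = 0.260), and was called lower against controls numbered up to 12 only (-0.47, 0.0425). Cyp3a41a missed the threshold (-1.53, adjusted p = 0.103), and it was called lower without Ctrl 1 (-1.66, 0.0473), without Ctrl 12 (-1.65, 0.0405) or when summed with Cyp3a41b (-1.80, 0.0044). The 4 members called are 4 of 6 tested, where 24.0% of the 14360 genes tested were lower and 26.4% higher. The median of the 6 was -1.31, beside 0.03 over all genes tested. Against all 17 vehicle mice 4 members were lower, where 24.5% of genes were lower. Only TAA 1 and TAA 3 are numbered 1 to 4, and in that range 0 members were called (Cyp3a59 -1.24, adjusted p = 0.0678), where 8.26% of genes were lower. Among mice numbered above 4, 4 were called, where 23.1% of genes were lower.

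For CCl4 and GAL the route control is 2 mice, which limits every call. After CCl4 3 members were lower. In the libraries labelled CCl4 1, 5, 6, 8, 10, 11 and 12 Cyp3a11 stood at 332, 231, 351, 357, 510, 333 and 551 CPM, against 1245 and 780 CPM in the controls labelled CIP 7 and 8. All 7 lay below both, with a log2 difference of -1.38 ± 0.29 (edgeR, adjusted p = 0.00571), a call that was lost with all 10 groups in 1 fit (-1.41, 0.147). Cyp3a25 stood between 56.8 and 141 CPM against 227 and 204 CPM (-1.26 ± 0.35, edgeR adjusted p = 0.0217). Cyp3a59 stood between 2.86 and 9.96 CPM against 17.6 and 19.3 CPM (-1.61 ± 0.45, edgeR adjusted p = 0.0222).

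In CCl4 Cyp3a13 stayed between 31.2 and 41.9 CPM beside 52.2 and 33.8 CPM in the controls and was not called (-0.18, adjusted p = 0.484). The 3 members called are 3 of 5 tested, where 15.6% of the 15365 genes tested were lower and 18.0% higher. The median of the 5 was -1.26, beside 0.10 over all genes tested. Each call rested on the pair of controls: without CIP 7, 0 members were called (Cyp3a11 -0.97, adjusted p = 0.0976), and without CIP 8 only Cyp3a11 was. With library totals in place of TMM scaling, which moved the median of all genes by 0.43, only Cyp3a11 was called (-0.96, adjusted p = 0.0498), where 7.16% of genes were lower and 29.7% higher. Against all 17 vehicle mice 6 of 6 members tested were lower, where 27.2% of genes were lower. With library totals 3 of the 6 were, where 12.2% of genes were lower and 50.3% higher, and Cyp3a44 (-0.37, adjusted p = 0.348), Cyp3a41a (-1.17, 0.122) and Cyp3a13 lost their calls. With TMM scaling Cyp3a11 differed by -1.92 ± 0.23, Cyp3a59 by -2.002 ± 0.28 and Cyp3a13 by -0.46 ± 0.17 (edgeR, adjusted p = 1.17e-07, 1.40e-06 and 0.0286). Cyp3a13 lost that last call without CCl4 6 (-0.40, 0.0772), 8 (-0.42, 0.0646), 10 (-0.44, 0.0573) or 11 (-0.42, 0.0656), and turned to 0.09 with library totals. Cyp3a41a (-1.74 ± 0.67, adjusted p = 0.0311) lost its call there without CCl4 1, 5, 6, 8, 11 or 12, with adjusted p between 0.0503 and 0.0678. That call was also lost with no filter on low counts (-1.744, edgeR adjusted p = 0.0626).

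With TMM scaling Cyp3a13 had its lowest group mean after GAL. Cyp3a13 stood at 16.1, 14.9, 12.4 and 16.4 CPM in the libraries labelled GAL 2, 4, 7 and 8, against 52.2 and 33.8 CPM, and every value was also below the lowest gavage control (21.9 CPM). Scaled to library totals alone, Cyp3a13 stood at 29.3, 25.0, 20.2 and 27.1 CPM, with only GAL 7 below the lowest gavage control (24.4 CPM), and its mean was 25.4 CPM in GAL and 21.1 CPM in ConA. The log2 difference with TMM scaling was -1.54 ± 0.24 (edgeR, adjusted p = 0.00669). Cyp3a25 stood at 92.1, 83.1, 84.6 and 93.6 CPM, below both controls (-1.29 ± 0.15, edgeR adjusted p = 0.00313). Cyp3a59 stood at 8.81, 6.87, 7.92 and 8.09 CPM, also below both (-1.22 ± 0.18, edgeR adjusted p = 0.00555), a call that was lost with all 10 groups in 1 fit (-1.22, 0.181). Cyp3a11, at 584, 797, 916 and 645 CPM beside 1245 and 780, was not called (-0.47 ± 0.28, adjusted p = 0.252).

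The GAL calls depended on the scaling. The 3 called lower are 3 of 5 tested, where 15.7% of the 15509 genes tested were lower and 12.8% higher, and the median of the 5 was -1.22 beside 0.08 over all genes. With library totals the median of all genes moved by 0.76, and 0 members were called (Cyp3a13 -0.79, adjusted p = 0.0701; Cyp3a25 -0.53, 0.0789; Cyp3a59 -0.45, 0.144), while Cyp3a11 turned to 0.27. On that scaling 5.44% of genes were lower and 35.6% higher. Against all 17 vehicle mice, with TMM scaling, 5 of 6 members tested were lower, where 27.5% of genes were lower. There Cyp3a13 differed by -1.78 ± 0.26, Cyp3a44 by -2.99 ± 0.65 and Cyp3a11 by -0.98 ± 0.28 (edgeR, adjusted p = 4.10e-06, 0.000495 and 0.00497), and Cyp3a11 lost that call with library totals (-0.14, adjusted p = 0.642), where 11.5% of genes were lower and 54.7% higher. The hepatocyte markers moved the same way, with 6 of 6 called lower in GAL (median -1.48) and 4 of 6 in CCl4 (median -1.20), and their part in these results was not tested.

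ConA was set against 2 intravenous saline mice that differed widely from each other. The library labelled CIV 8 held more of every abundant member than CIV 7, with Cyp3a11 at 2508 against 962 CPM and Cyp3a25 at 466.01 against 134 CPM, and 25.4% against 6.80% mitochondrial counts. In the libraries labelled ConA 2, 3, 4, 5, 8, 11 and 12 Cyp3a11 stood at 601, 994, 884, 876, 1272, 678 and 173 CPM, so 5 of 7 lay below both controls. Its difference was not called (-1.09 ± 0.53, edgeR adjusted p = 0.135). Cyp3a25 stood between 32.9 and 117 CPM, below both controls in all 7 mice (-1.81 ± 0.43, edgeR adjusted p = 0.00955). Cyp3a59 stood between 2.05 and 12.9 CPM, below both in 6 mice (-1.86 ± 0.56, edgeR adjusted p = 0.0264). Cyp3a13 stood between 18.0 and 43.0 CPM beside 30.3 and 73.3 CPM (-0.62 ± 0.35, adjusted p = 0.198).

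The 2 members called after ConA are 2 of 4 tested, where 17.3% of the 14132 genes tested were lower and 16.8% higher, and the median of the 4 was -1.45 beside 0.03 over all genes. Without CIV 8 neither was called (Cyp3a25 -0.69, adjusted p = 0.327; Cyp3a59 -0.55, 0.586), and Cyp3a13 turned to 0.12. With library totals, which moved the median of all genes by -0.59, 4 of 4 were lower, where 26.5% of genes were lower and 7.79% higher. Against all 17 vehicle mice 5 of 6 were lower, where 33.7% of genes were lower. There Cyp3a25 differed by -1.51 ± 0.25 and lay below all 17 vehicle mice in all 7 ConA mice, while Cyp3a11 differed by -0.76 ± 0.27, Cyp3a13 by -0.54 ± 0.20 and Cyp3a44 by -1.198 ± 0.47 (edgeR, adjusted p = 6.28e-06, 0.0162, 0.0198 and 0.0256). Cyp3a13 lost its call there without ConA 12 (-0.43, 0.058), and Cyp3a44 without ConA 2 (-1.13, 0.0512), 11 (-1.002, 0.0523) or 12 (-0.94, 0.0524). The Kupffer cell markers, genes of the resident liver macrophage, summed to 23.0 to 49.8 CPM in ConA against 277 to 280 CPM in intravenous saline, with 5 of 5 called lower, and their part in the family's change was not tested. Mitochondrial counts made up 14.55% to 39.3% of ConA libraries, beside 7.48% to 21.8% of gavage controls, and their part was not tested either.

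Between vehicles no member was called. Of 7 members tested, 0 differed between intraperitoneal saline and gavage, where 0.0131% of genes did, and 0 between intravenous saline and gavage, where 0.0263% did. In both, 0 members had an unadjusted p under 0.05 and DESeq2 called 0. With 2 mice in each saline group such tests find only large differences. Among the gavage controls themselves, Cyp3a11 averaged 1382 ± 355 CPM in the 4 mice numbered 1 to 4, 1660 ± 229 CPM in the 5 numbered 7 to 12 and 1207 ± 564 CPM in the 4 numbered 15 to 18. Cyp3a25 averaged 214 ± 34.5, 320 ± 33.2 and 194 ± 63.3 CPM in the same mice.

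**Figure D5:**
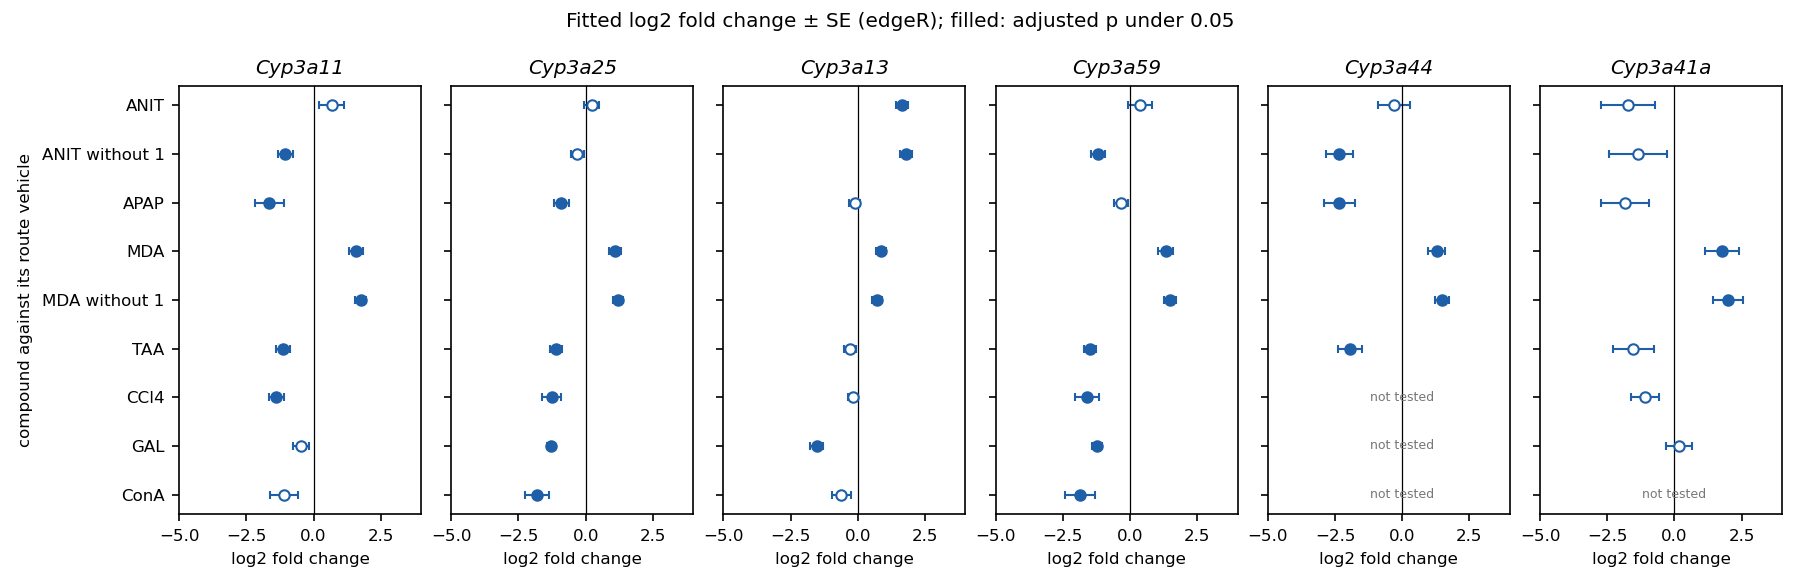
Log2 difference of each tested member from the controls of its route, by compound, also without ANIT 1 and without MDA 1, for the 6 members tested in MDA, with bars of 1 SE and filled points where the edgeR adjusted p is under 0.05. All 6 lie above 0 in MDA, and every called member of APAP, TAA, CCl4, GAL and ConA lies below 0.

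The receptors that regulate Cyp3a genes differed from the controls after most compounds, in fits with TMM scaling alone. Nr1i2, which encodes PXR, averaged 28.8 ± 4.38 CPM (SD) in the gavage controls (n = 13), 52.8 ± 16.2 CPM in ANIT (n = 4) and 63.8 ± 14.9 CPM in MDA (n = 7), and all 7 MDA mice lay above the highest control (33.6 CPM). It averaged 18.8 CPM in APAP, 18.5 in TAA, 16.1 in CCl4, 8.73 in GAL and 8.17 in ConA. The log2 differences of Nr1i2 from the route controls were 0.88 ± 0.16 for ANIT, 1.15 ± 0.12 for MDA, -0.59 ± 0.15 for APAP, -0.59 ± 0.12 for TAA, -0.89 ± 0.13 for CCl4 and -1.88 ± 0.19 for ConA, each with an edgeR adjusted p of 0.005 or less. In GAL it was not called (-1.82 ± 0.61, adjusted p = 0.0663).

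Nr1i3, which encodes CAR, was higher in ANIT (0.75 ± 0.26, edgeR adjusted p = 0.0362) and not called in MDA (0.51 ± 0.25, adjusted p = 0.126; -0.02 without MDA 1). Nr1i3 was lower in APAP (-0.63), TAA (-0.77), CCl4 (-0.89) and ConA (-2.27), and missed the threshold in GAL (-1.65, adjusted p = 0.0533). Rxra, the shared partner receptor, was lower in TAA (-1.14), CCl4 (-1.27) and GAL (-1.52) and not called in the other 4. Hnf4a, a hepatocyte regulator of many P450 genes, was higher in ANIT (0.90) and MDA (0.30; adjusted p = 0.0169, and 0.0516 without MDA 1) and lower in TAA (-0.37) and CCl4 (-0.72). Over the list of 16 nuclear receptors and liver transcription factors, 6 of 15 tested were higher and 1 lower in ANIT, 4 and 1 of 15 in MDA (3 and 4 without MDA 1), 0 and 5 of 15 in APAP, 1 and 10 of 15 in TAA, 0 and 7 of 15 in CCl4, 0 and 4 of 16 in GAL, and 3 and 5 of 16 in ConA. Over all genes tested, 14.0% were higher and 14.2% lower in ANIT, 17.4% and 16.4% in MDA, and 17.3% and 14.6% in APAP. The shares were 26.4% and 24.0% in TAA, 18.0% and 15.6% in CCl4, 12.8% and 15.7% in GAL, and 16.8% and 17.3% in ConA. These shares apply to the counts of every list below, and some counts, such as receptors higher in ConA, lie near them.

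The electron donors of the P450 system moved in mixed directions. Por, the reductase that supplies every microsomal P450, was higher in ANIT (1.77 ± 0.20), MDA (1.68 ± 0.19), TAA (1.203 ± 0.20), CCl4 (0.81 ± 0.17) and ConA (1.59 ± 0.24), and not called in APAP or GAL. Cyb5a, cytochrome b5, was higher in ANIT (0.58) and MDA (0.47) and lower in APAP (-0.63), TAA (-0.42), CCl4 (-0.91), GAL (-1.23) and ConA (-1.60). Alas1, the first enzyme of heme synthesis, was higher in ANIT (1.83), MDA (1.18), TAA (0.51) and ConA (1.38). Cyb5b, the outer mitochondrial form of cytochrome b5, was lower in ANIT (-1.19), MDA (-1.02), APAP (-1.51), TAA (-1.87), CCl4 (-0.76), GAL (-2.14) and ConA (-3.02). Of the 12 genes for P450 electron transfer and heme supply, 3 were higher and 4 lower in ANIT, 4 and 6 in MDA, 0 and 7 in APAP, 2 and 9 in TAA, 1 and 6 in CCl4, 0 and 6 in GAL, and 2 and 9 in ConA.

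Of 15 other known PXR and CAR targets, 14 were tested in each comparison. In MDA 8 were higher and 1 lower (median 0.48; 8 and 2, median 0.55, without MDA 1), with Cyp2b10 up by 3.25 ± 0.21 and Abcb1a, a drug efflux pump, by 4.13 ± 0.43 on the log2 scale. In ANIT 5 were higher and 1 lower (median 0.40), and without ANIT 1 these were 4 and 3 (median -0.21), with Cyp2c55 at -5.08 ± 0.40 and Papss2, which supplies sulfate donor, at -1.53 ± 0.19. More targets were lower than higher after APAP (1 higher, 10 lower, median -1.44), TAA (2 and 10, -0.77), CCl4 (2 and 7, -0.92), GAL (2 and 9, -1.62) and ConA (0 and 9, -2.10). Cyp2c29 differed by -3.05 ± 0.55 in APAP, -2.97 ± 0.19 in TAA and -2.98 ± 0.19 in GAL. Gsta1 went the other way in APAP (3.21 ± 0.47), TAA (3.70 ± 0.49), CCl4 (4.102 ± 0.19) and GAL (2.30 ± 0.41) and was lower in ConA (-3.30 ± 0.95). Over all genes tested the median lay between -0.01 and 0.10 in these 7 comparisons.

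Zonal markers also differed from the controls. The 8 pericentral hepatocyte markers were lower in 4 (ANIT), 6 (MDA), 7 (APAP), 6 (TAA), 7 (CCl4), 6 (GAL) and 4 (ConA), and higher in 0 of these comparisons with all mice in. Without ANIT 1, 5 were lower and 1 higher in ANIT, and without MDA 1, 7 were lower in MDA. In MDA, where 6 Cyp3a members were higher, Lgr5 differed by -2.73 ± 0.31 and Glul by -2.27 ± 0.46 on the log2 scale, both genes of the innermost pericentral layer. The 7 periportal markers were lower in 2 in ANIT and in MDA (3 in MDA without MDA 1), 4 in APAP, 6 in TAA, 7 in CCl4, 6 in GAL and 3 in ConA, with at most 1 higher. Inflammatory signals (12 genes), which repress P450 genes in hepatocyte culture, were higher in 8 of 10 tested in ANIT and in MDA (6 of 10 without MDA 1), 9 of 10 in APAP, 7 of 10 in TAA, 4 of 10 in CCl4 and 10 of 12 in ConA, and in 0 of 10 in GAL, where 4 were lower. Their part in the changes of the Cyp3a genes was not tested.

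Markers of other liver cells also differed. Neutrophil markers were higher in 6 of 6 tested in TAA, 4 of 4 in ConA, 3 of 3 in APAP, 3 of 5 in CCl4, 3 of 4 in GAL, 2 of 3 in MDA (3 without MDA 1) and 1 of 3 in ANIT (0 without ANIT 1). Monocyte and macrophage markers were higher in 5 of 6 in APAP and in 4 of 6 in TAA, CCl4 and GAL. Stellate cell markers were lower in 5 of 6 in MDA, 4 of 6 in ConA and 3 of 6 in ANIT (1 without ANIT 1). Enterocyte markers, included because Cyp3a11 and Cyp3a13 are also intestinal genes, had 1 or 2 genes tested in each comparison, and 1 higher and 1 lower in CCl4 were the only calls.

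Cyp3a41a, Cyp3a41b and Cyp3a44 belong to the sex-biased liver genes, whose other members can be set beside them. Of 13 female-biased genes, 3 of 10 tested were higher and 5 lower in MDA, 4 and 2 of 12 in ANIT, 0 and 4 of 11 in APAP, 4 and 4 of 11 in TAA, 0 and 3 of 11 in CCl4, 1 and 2 of 10 in GAL, and 4 and 2 of 10 in ConA. In MDA the log2 difference was -5.75 ± 0.63 for Hao2. Of 13 male-biased genes, all tested, 9 were lower and 2 higher in ANIT (8 and 1 without ANIT 1), 7 and 1 in MDA, 11 and 0 in APAP, 5 and 0 in TAA, 11 and 0 in CCl4, 10 and 0 in GAL, and 4 and 0 in ConA. Hsd3b5, a male-specific steroid enzyme, was called lower in all 7 comparisons, with log2 differences of -9.07 ± 0.50 in MDA and -3.54 ± 0.99 in CCl4. Of 8 fetal and neonatal liver genes, the class of Cyp3a16, 2 of 2 tested were higher in MDA (2 of 3, with 1 lower, without MDA 1), 2 of 4 in APAP and in TAA, 2 of 5 in CCl4, 1 of 4 in ANIT, 1 of 4 in GAL, where 1 was lower, and 0 of 4 in ConA. Without ANIT 1, 1 of 4 was lower in ANIT.

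The genes most like each abundant member across the 10 group means were sought among 5869 genes of at least 10 CPM, by the root mean square difference of centred log2(CPM + 1). Cyp3a11 lay nearest to Cyp2c54 (0.56), Etnppl (0.57) and Cyp2c50 (0.58). Cyp3a13 lay nearest to Gstt2 (0.21), Epha1 (0.31) and Sec23a (0.33), and Cyp3a25 to Fdft1 (0.30), Eva1a (0.31) and Sec14l4 (0.31). For Cyp3a59 the nearest were Slc45a3 (0.36), Vwce (0.37) and Fdft1 (0.37). Within the family Cyp3a25 and Cyp3a59 differed by 0.27, Cyp3a11 and Cyp3a25 by 0.58, and Cyp3a11 and Cyp3a13 by 1.007, so Cyp3a13 was further from Cyp3a11 than from Cyp3a25 (0.62). Without ANIT 1 and MDA 1 the nearest were Glt1d1 (0.69), Ces2a (0.70) and Etnppl (0.70) for Cyp3a11, and Fdft1 (0.44), Stard4 (0.48) and Abca2 (0.50) for Cyp3a59, while Gstt2 and Fdft1 were again nearest to Cyp3a13 and Cyp3a25. These distances rest on 10 group means, 2 of them from 2 mice each, and on shared sequence for Cyp3a25 and Cyp3a59.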

How the data were processed

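Liver RNA of 57 mice was measured. The authors deposited 1 table of estimated counts, and per the submitters' processing notes the tools were Salmon 1.6.0 and R 4.1.3 with genome build GRCm39. The annotation, the use of strand and any scaling are not given in the sources used here. In 9024 single-transcript genes, longer transcripts had a lower minimum among their nonzero values (rank correlation across genes, rho = -0.95; genes are not independent), so the estimated counts look corrected for length, which no source states. They are not whole reads, and counting intervals were not computed.

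Groups and replicate numbers came from the labels. Symbols and transcripts came from GENCODE M21, promoters from RefSeq on GRCm38.p6, and alignments from Biopython 1.88 in Python 3.11.15. Estimated counts were rounded for edgeR 4.0.16 (limma 3.58.1, R 4.3.3). Every fit held the 2 groups compared and used TMM factors, the filterByExpr filter and a two-sided quasi-likelihood test, with Benjamini-Hochberg adjustment over all genes tested and calls at an adjusted p under 0.05. The SE is the size of the log2 difference over the square root of F. CPM were scaled by TMM over all 57 mice. The test was checked on simulated counts. Every compound was compared with its route vehicle and with all 17 vehicle mice. For no group was it counted how many of all genes lay outside the control range. No fit dropped or imputed a sample unless stated.

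The members, gene lists and tests were chosen with earlier results of these data known. Named in every comparison are the 8 members, Nr1i2, Nr1i3, Rxra, Hnf4a, Por, Cyb5a and Alas1; of other listed genes, up to 2 called genes with the lowest adjusted p and 2 with the largest difference; and the 3 genes most like each member of at least 1 CPM. Not every gene this rule names is reported here. Some targets were singled out per mouse in ANIT and MDA after their values were seen. Alternatives were library totals, RLE factors, DESeq2 1.42.0, no filter, all 10 groups in 1 fit, a replicate block, ranges of replicate numbers, summed Cyp3a41a and Cyp3a41b, and each mouse left out. Lists, levels, orders and likeness without ANIT 1 and MDA 1, and shares of genes called with library totals, were added after seeing the data. Proteins were not used here.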

Additional observations from a re-analysis of the deposited data

Results flagged for a closer look

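In 53 sets of a member in a group of 4 to 10 mice, 8 held a mouse whose gap to its nearest neighbour exceeded Dixon's 95% limit as a share of the group's range. For 1 set of normally distributed values chance gives about 1 in 20. The sets share mice, some members share sequence, and ANIT 1 recurs among the 8, so the 8 cannot be set against that rate. Gaps and ranges were taken on log2(CPM + 1), while the levels beside them are in CPM. The library labelled ANIT 1 was the highest of 4 for Cyp3a11 (gap 0.926 of the range, 7161 CPM against 627 to 750), for Cyp3a25 (0.844, 559 against 183 to 218), for Cyp3a44 (0.916, 1.57 against 0.0872 to 0.168) and for Cyp3a59 (0.961, 87.9 against 9.47 to 10.4). The library labelled MDA 1 was the lowest of 7 for Cyp3a44 (0.582, 0.178 CPM against 1.21 to 2.46). The library labelled ConA 12 was the lowest of 7 for Cyp3a11 (0.624, 173 CPM against 601 to 1272). Taken on CPM itself, the gaps of MDA 1 (0.451) and ConA 12 (0.390) did not exceed the limit, and those of the other 6 mice and members did. At the limit of detection, APAP 2 was the only one of 6 mice above 0 for Cyp3a16 (gap 1.000 of the range, 0.0214 CPM), and APAP 1 was the highest of 6 for Cyp3a41b (0.933, 0.520 CPM against 0 to 0.0286).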

How the results depend on the processing

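Of 1279 values of single members under alternatives, 1161 kept direction and side of the threshold, 79 were no longer called, 18 became called and 27 changed sign, 6 of which also lost or gained a call. Of 273 counts of called members, 251 stayed within 1.5 times. Depth limits Cyp3a16, Cyp3a41a, Cyp3a41b and Cyp3a44, and 2 mice per saline group limit the CCl4, GAL and ConA calls. The cause of each change was not tested.

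Against route vehicles, mice numbered 1 to 4 gave 0 called members in APAP, 3 in MDA and 0 in TAA, and mice numbered above 4 gave 3 in MDA. Library totals gave 1 in CCl4, 0 in GAL and 4 in ConA, and all 17 vehicles gave 6, 5 and 5. Library totals moved the median of all genes by -0.22 in ANIT and 0.16 in APAP, and receptors and lists were not refitted with them. Against all 17, library totals gave 3 in CCl4. Leaving out a mouse gave 1 to 4 in ANIT (either control set), 2 to 3 in APAP (either), 5 to 6 in MDA (either), 4 to 5 in TAA (4 against all 17), 0 to 3 in CCl4 (4 to 5), 3 in GAL (5) and 0 to 2 in ConA (3 to 5).

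The mice were not treated as paired by replicate number. In no comparison with 2 or more shared numbers was every same-number correlation over 0.1. In TAA 2 of 4 were, up to 0.2475, and the 1 pair of ConA and intravenous saline gave 0.112. Correlations between mice of different numbers were not computed, so whether the numbers mark pairs or batches was not tested. With the number as a replicate block, 0 members were called in APAP (0 against all 17), 3 in MDA (not Cyp3a41a, Cyp3a44 or Cyp3a59), 1 in ANIT, 4 in TAA and 3 in GAL, and against all 17, 3 in CCl4 and 2 in ConA. The shares of all genes called with the block, and in most fits with a mouse left out, are not given here. Counts of members from those fits therefore cannot be read as particular to the members. The block turned Cyp3a11 in ANIT to -0.22 (-0.22 against all 17), Cyp3a59 to -0.32 (-0.32) and Cyp3a41a in CCl4 against all 17 to 0.13. No paired analysis was possible for CCl4 and ConA against their route vehicles because they share 1 number.

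Other sign changes were in log2 differences. With library totals these were Cyp3a25 in ANIT (-0.0227), Cyp3a13 in APAP (0.0279), Cyp3a13 in CCl4 (0.23; 0.0908 against all 17) and Cyp3a11 in GAL (0.27). In mice numbered 1 to 4, Cyp3a13 (0.12) and Cyp3a59 (0.12) in APAP changed sign. Summed with Cyp3a41b, Cyp3a41a in ANIT was 0.48, and against all 17 Cyp3a41a in GAL was -0.43. Leaving out a mouse gave, in ANIT, -1.05 to 0.99 for Cyp3a11 (-1.03 to 1.015 against all 17), -0.31 to 0.39 for Cyp3a25, -2.34 to 0.0628 for Cyp3a44 (-2.23 to 0.18) and -1.19 to 0.65 for Cyp3a59 (-1.21 to 0.63). It gave -0.47 to 0.19 for Cyp3a13 in CCl4, -0.17 to 0.65 for Cyp3a41a in GAL and -1.10 to 0.12 for Cyp3a13 in ConA.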
